A study of Mus musculus with 6 samples.

Results

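The genes described here are 8 regulators of the Meis, Pbx and Mecom-Prdm16 families, namely Meis1, Meis2, Meis3, Pbx2, Pbx3, Pbx4, Mecom and Prdm16. Peaks of 5-hydroxymethylcytosine (5hmC) were taken where they overlapped the RefSeq span of one of these genes or the 5 kb on either side of it, and for Meis1 out to 200 kb on each side. Overlapping peaks of the 4 libraries were merged, which gave 158 regions of 174070 in the genome. Of these, 132 lay in the 8 genes with their 5 kb, and 26 lay farther out around Meis1.

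The cells were Kit-enriched bone marrow cells of C57BL/6 mice carrying Tet2fl/fl and CreER, transduced with the leukaemia fusion gene AML1-ETO on a retrovirus that also carries GFP. KO cells were given 200 nM 4-hydroxytamoxifen (4-OHT) to delete Tet2 (Tet2-/-), and flox cells were given ethanol (Tet2fl/fl), each for 4 days. Cells of an immature myeloid gate, positive for GFP and CD16/32 and negative for CD11b and Gr1, were sorted at passage 5. DNA carrying 5hmC was precipitated with an antibody and sequenced, and the authors called peaks in each of 2 KO and 2 flox libraries. AML1-ETO was thus present in both groups, and because the drug was given to KO cells alone, loss of Tet2 and exposure to 4-OHT with active Cre cannot be told apart. The labels do not say whether the replicates were separate cultures or animals, so the spread between them may be technical. A peak list holds no read counts, so the depth behind the peaks is unknown and loss of the floxed Tet2 sequence was not checked here. The DNA assay has no markers with which to check the sorted cell type. The lists held 116539 and 122101 peaks in the KO libraries (110.3 and 111.1 Mb), and 118727 and 118522 peaks in the flox libraries (113.3 and 110.3 Mb).

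Hydroxymethylcytosine is made from methylcytosine by TET enzymes, of which Tet2 is a major one in blood cells, and it is commonly enriched in gene bodies and at enhancers. Meis and Pbx proteins belong to the TALE class of homeodomain proteins and bind DNA together with each other and with Hox proteins. Meis1 is a cofactor of Hoxa9 in myeloid leukaemia and is needed for adult blood stem cells, and Pbx3 is a further partner of Hoxa9 in leukaemia. Mecom encodes the zinc finger protein EVI1 and, from a more distal start, the longer MDS1-EVI1 protein with a PR domain. Prdm16 is its close relative. Both maintain blood stem cells and both are activated by chromosomal rearrangements in human myeloid leukaemia.

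The starts at which the KO and flox libraries differed in peak cover, those with no peak, and the Mecom distal start, for comparison with the internal one, are given as sequence. Each run is the 250 bases before a RefSeq start (RefSeq, GRCm38.p6), written 5′ to 3′ in the direction of transcription, with every CpG in capitals, since CpG is the usual site of methylation and hydroxymethylation. The Pbx4 run lies at chr8:69832374-69832623 on the plus strand. The others are on the minus strand, the Mecom internal start at chr3:30013205-30013454, Meis2 at chr2:116064620-116064869, the Mecom distal start at chr3:30509760-30510009, Meis1 at chr11:19018970-19019219 and Prdm16 at chr4:154636874-154637123.
Pbx4 (peak in both KO libraries, none in flox): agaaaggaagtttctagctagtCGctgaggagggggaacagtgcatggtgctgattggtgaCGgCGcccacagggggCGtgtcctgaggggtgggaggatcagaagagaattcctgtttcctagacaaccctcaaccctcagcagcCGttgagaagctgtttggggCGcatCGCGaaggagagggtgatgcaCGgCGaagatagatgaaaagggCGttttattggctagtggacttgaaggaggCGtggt
Mecom internal start (peak in both KO libraries, none in flox): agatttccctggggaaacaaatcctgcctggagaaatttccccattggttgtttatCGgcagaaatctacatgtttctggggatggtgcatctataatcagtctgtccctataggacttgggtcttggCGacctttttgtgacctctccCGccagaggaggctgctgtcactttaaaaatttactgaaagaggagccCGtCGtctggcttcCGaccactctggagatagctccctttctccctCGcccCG
Meis2 (peak in both flox libraries, none in KO): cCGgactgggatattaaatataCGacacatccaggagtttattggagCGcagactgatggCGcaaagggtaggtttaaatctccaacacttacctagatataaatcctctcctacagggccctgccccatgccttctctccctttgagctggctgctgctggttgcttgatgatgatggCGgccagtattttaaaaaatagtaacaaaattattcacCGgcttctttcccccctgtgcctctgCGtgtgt
Mecom distal start (peak in all 4 libraries): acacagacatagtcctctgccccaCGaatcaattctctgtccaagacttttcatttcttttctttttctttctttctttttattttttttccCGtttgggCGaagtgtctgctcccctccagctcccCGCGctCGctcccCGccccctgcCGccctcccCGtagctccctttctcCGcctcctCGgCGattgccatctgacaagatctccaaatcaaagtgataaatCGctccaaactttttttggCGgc
Meis1 (no peak in any library): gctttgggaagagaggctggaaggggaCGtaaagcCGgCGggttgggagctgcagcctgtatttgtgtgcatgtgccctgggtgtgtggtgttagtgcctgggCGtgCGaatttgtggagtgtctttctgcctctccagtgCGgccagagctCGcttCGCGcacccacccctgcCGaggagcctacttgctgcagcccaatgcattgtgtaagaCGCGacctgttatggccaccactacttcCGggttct
Prdm16 (no peak in any library): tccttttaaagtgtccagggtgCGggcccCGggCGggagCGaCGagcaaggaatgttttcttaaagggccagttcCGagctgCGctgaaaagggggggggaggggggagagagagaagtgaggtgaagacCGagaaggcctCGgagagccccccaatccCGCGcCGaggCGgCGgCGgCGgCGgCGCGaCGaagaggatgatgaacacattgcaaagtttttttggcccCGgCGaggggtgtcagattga

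CpG was counted over promoter windows, which run from 250 bases before a start to 50 after it. The windows with a peak in all 4 libraries held 29 CpG at Pbx2, 21 at Meis3 and 19 at the Mecom distal start. Those with peaks in 1 group held 19 at Pbx4, 13 at Meis2 and 9 at the Mecom internal start, and those with no peak held 24 at Prdm16 and 15 at Meis1. CpG content thus did not order the windows by pattern. The median was 13 CpG over all windows of protein-coding genes, 16 in those with a peak in all 4 libraries and 12 in those with none.

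Short motifs of 3 factor families were searched on both strands of the same windows. TGTGGT, the core bound by RUNX proteins and so by AML1-ETO, occurs in 16.8% of all windows and was found once here, in the Meis1 run at base 85 counted from its 5′ end. TGACAG, the core bound by MEIS proteins, occurs in 19.2% of all windows and was found once, on the reverse strand of the Mecom internal run at base 165. TGATTNAT, a PBX-HOX core, occurs in 3.22% of all windows and in none of the 8 windows of these genes. These matches are descriptions of letters and say nothing of binding.

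Of 8 windows over the starts of 7 genes (Pbx3 has no entry in the table), 3 were overlapped by a peak in all 4 libraries, 2 in both KO libraries alone, 1 in both flox libraries alone and 2 in no library. Over all 32851 windows, 5.19% had a peak in all 4 libraries, 0.368% in both KO libraries alone, 0.566% in both flox libraries alone and 85.8% in none. The 3 with peaks in all 4 libraries were Meis3, Pbx2 and the Mecom distal start. No test was made of these counts, since 8 windows are not replicates of a condition.

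The Pbx4 start carried a peak in both KO libraries. In the direction of transcription it ran from 308 bp before the start to 849 bp after it in KO replicate 1 and from 250 bp before to 788 bp after in KO replicate 2. The nearest flox peaks lay 6361 and 6317 bp from the window. Pbx4, which pairs with Meis proteins as the other Pbx proteins do, thus had its whole printed run under a peak in KO cells and none of it in flox cells.

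At the Mecom internal start, which lies deep in the gene, the KO peaks ran from 547 to 157 bp before the start in replicate 1 and from 1067 to 135 bp before it in replicate 2. They covered bases 1 to 94 and bases 1 to 116 of the printed run, so the MEIS core at base 165 lay outside both. The nearest flox peaks were 6124 and 22114 bp from the window. The overlap therefore concerns the upstream edge of the window and not the start itself.

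Meis2, a paralogue of Meis1, had the opposite arrangement at the RefSeq start used here, which lies inside the gene span. The 5′ end of the span, at chr2:116067537, was under a peak in all 4 libraries. In the KO libraries the peaks downstream of the start began 439 and 419 bp after it, and the peaks upstream ended 722 and 1058 bp before it, so that the printed run lay in a gap. In the flox libraries a single peak ran from 345 bp before the start to 2382 bp after it and from 609 bp before to 2250 bp after. In the flox libraries the peaks upstream ended 1069 and 729 bp before the start, so that a gap lay there too. The edges of the nearest KO peaks were only 389 and 369 bp from the window, and the merged region counted as called in all 4 libraries. Meis1 and Prdm16 had no such edge nearby. The nearest peaks were 6198 and 5942 bp from the Meis1 window in KO libraries and 5844 and 6207 bp in flox libraries. For Prdm16 they were 3158 and 3318 bp away in KO libraries and 3662 and 3529 bp in flox libraries.

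**Figure D1:**
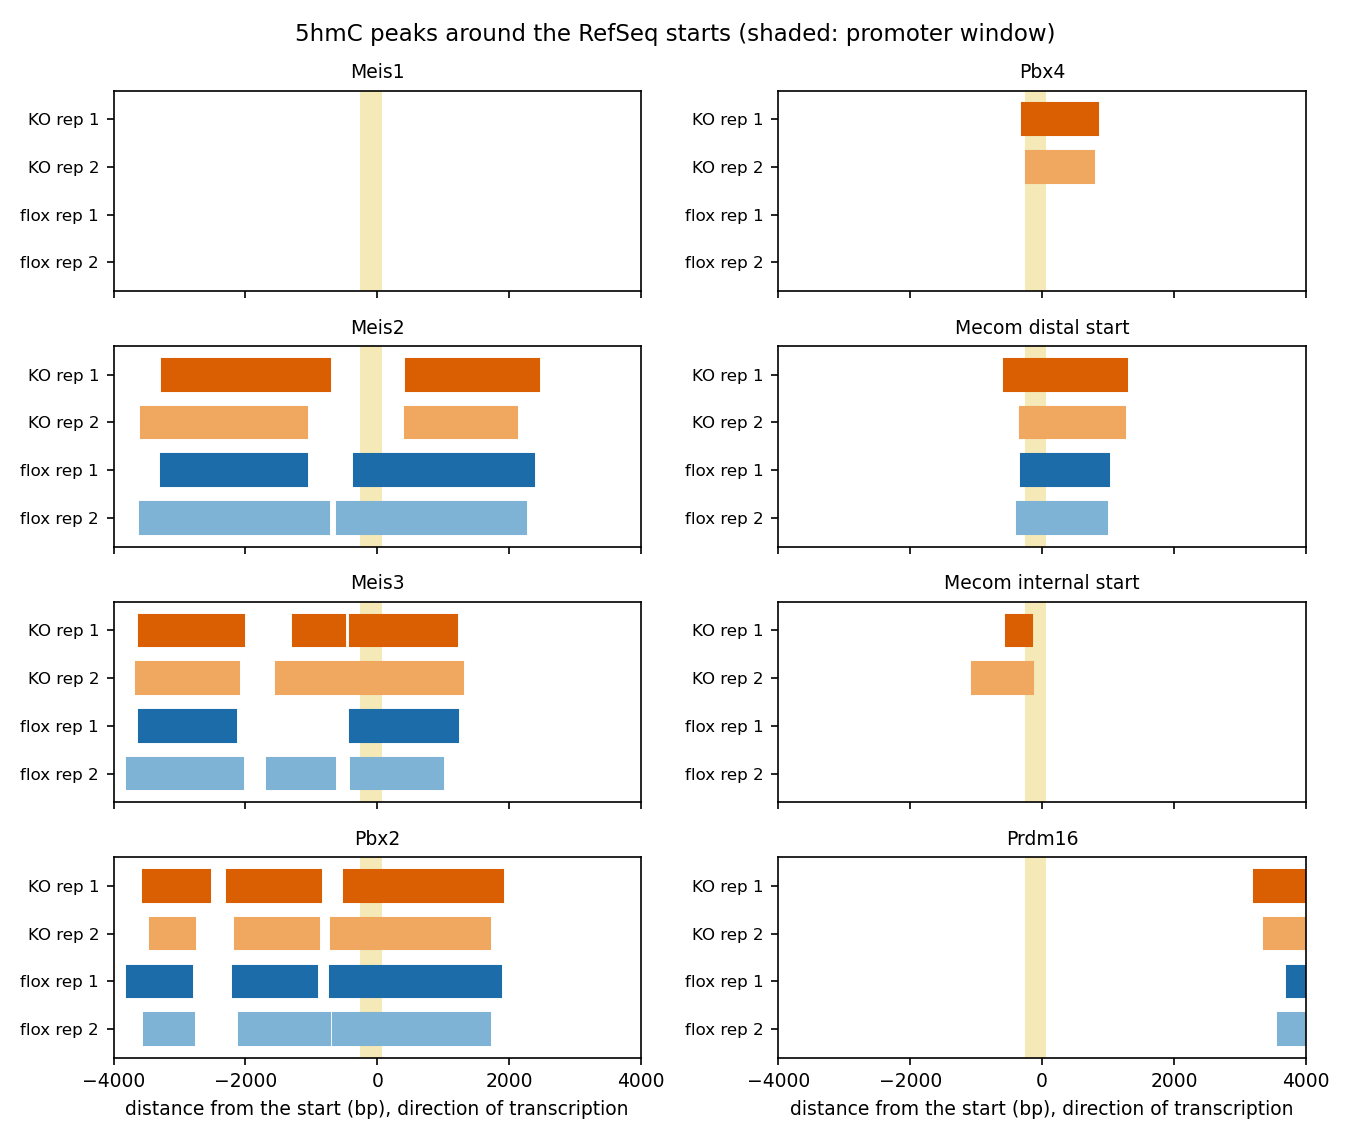
Peaks of each library (bars; KO replicates orange, flox replicates blue) within 4000 bp of 8 RefSeq starts, with distance from the start in bp on the x axis and the promoter window shaded. Peaks cover the Pbx4 start in the KO libraries alone. The Meis2 start shown, which lies inside the gene span, is covered in the flox libraries alone. The Meis1 and Prdm16 windows are free of peaks.

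Called length was counted as the bases under peaks per kb of gene with its 5 kb, which allows genes of different length to be compared. Pbx2 had 429.0 and 309.5 bp per kb in KO libraries and 386.3 and 366.3 in flox libraries. Meis3 had 377.2 and 310.6 bp per kb in KO libraries and 341.6 and 372.1 in flox libraries. Both stood at or above the percentile of 99.8 among 21883 protein-coding genes, whose median was 32.3 bp per kb. They are also the shortest of the 8 spans, at 5.142 and 12.5 kb, so that the added 5 kb make up much of their windows.

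Prdm16 had 99.1 and 99.8 bp per kb in KO libraries and 97.4 and 100.7 in flox libraries. Pbx4 had 76.9 and 55.9 bp per kb in KO libraries and 88.4 and 94.0 in flox libraries. Meis2 had 53.5 and 61.2 bp per kb in KO libraries and 61.0 and 71.6 in flox libraries. These 3 genes stood at percentiles of 85.5, 78.9 and 70.9. Mecom had 47.0 and 43.9 bp per kb in KO libraries and 36.1 and 38.8 in flox libraries. Meis1 had 34.6 and 35.0 bp per kb in KO libraries and 29.2 and 39.1 in flox libraries, and so sat near the median gene. Pbx3 had the least, 11.1 and 16.0 bp per kb in KO libraries and 19.4 and 13.0 in flox libraries, at a percentile of 33.7. In this order, Pbx2 and Meis3, Pbx4 and Meis2, and Mecom and Meis1 overlapped in their 4 libraries, while the other neighbours did not.

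**Figure D2:**
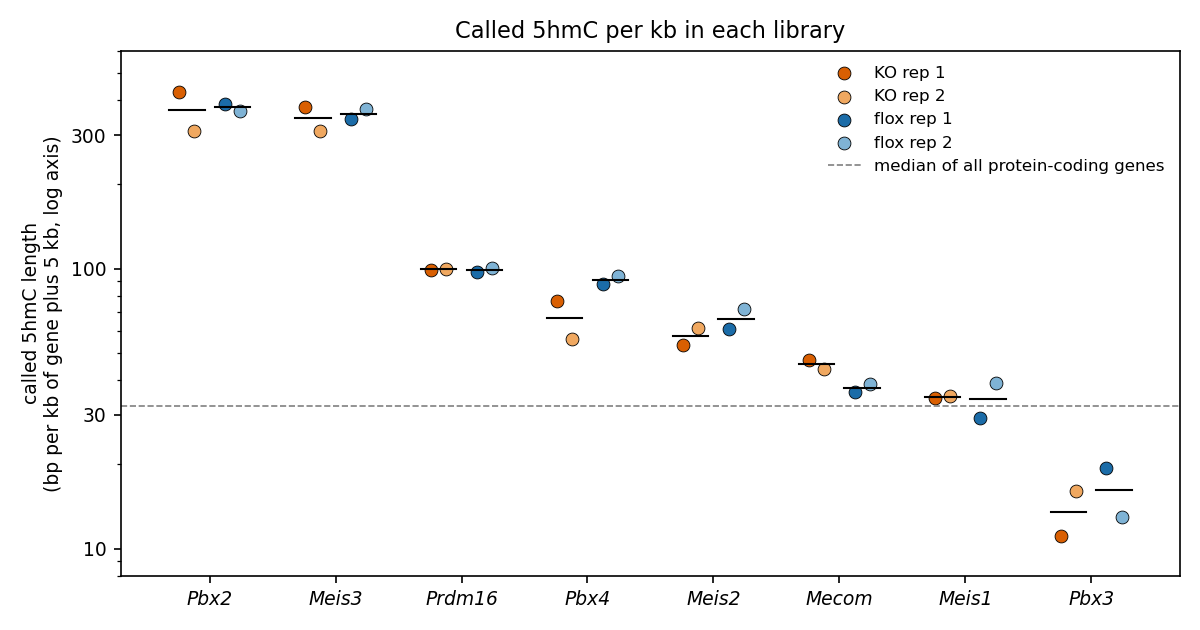
Called 5hmC length per kb of gene plus 5 kb (log axis) for the 8 genes, with a point for each of 2 KO and 2 flox libraries, a bar at each group's mean and a dashed line at the median of all protein-coding genes. Pbx2 and Meis3 lie highest and Pbx3 lowest, and the KO and flox points are apart for Mecom (KO higher) and Pbx4 (KO lower).

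KO and flox libraries were compared over all genes with limma on the log2 of called length (scaled to equal totals, plus 500 bp). None of the 14159 genes tested passed an adjusted p of 0.05 (percent called 0), the smallest being 0.773, and so none of the 8 did. At an unadjusted p under 0.05, 1 of the 8 (Mecom) was found, against 6.14% of all genes tested. Of the 8 genes, 5 had a log2 difference (KO minus flox) below 0, against 54.6% of all genes tested, and their median of -0.03 lay beside -0.04 for all.

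Mecom had 26925 and 24961 scaled bp in KO libraries, against 20152 and 22263 scaled bp in flox libraries. Both KO values were above both flox values, which also held for 14.6% of all genes tested. The log2 difference was 0.29 (SE 0.10; 95% interval 0.03 to 0.54), with an unadjusted p of 0.0332 and an adjusted p of 0.782 by limma. With peaks scoring at least 100 alone, the difference was 0.10, and with the top 50000 peaks per library it was 0.14. Pbx4 had 3865 and 2787 scaled bp in KO libraries, against 4323 and 4725 scaled bp in flox libraries. Both KO values were below both flox values, as in 20.7% of all genes tested. Its log2 difference was -0.41 (SE 0.22; 95% interval -0.97 to 0.16; limma adjusted p 0.841). It was -0.20 without KO replicate 2, -0.62 with the top 50000 peaks per library, and -0.01 when peaks were counted in place of bases.

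For the other 6 genes the groups overlapped. The log2 difference was 0.05 for Meis1 (95% interval -0.47 to 0.58) and -0.19 for Meis2 (-0.55 to 0.18). It was 0.02 for Prdm16, whose interval of -0.17 to 0.21 was the narrowest of the 8. It was -0.04 for Meis3, -0.03 for Pbx2 and -0.20 for Pbx3, with SEs of 0.17, 0.21 and 0.28. With peaks scoring at least 100 alone, the difference was 0.67 for Meis1, -0.38 for Meis2, 0.45 for Meis3, -0.13 for Pbx2, -0.82 for Pbx3 and 0.04 for Prdm16. With the top 50000 peaks per library it was 0.39 for Meis1, -0.34 for Meis2, 0.28 for Meis3, -0.35 for Pbx2, -0.79 for Pbx3 and 0.11 for Prdm16. The p-values of all 6 genes missed the threshold, which does not show that the groups were alike.

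Meis1 lies on the minus strand at chr11:18880428-19019651 and spans 139.2 kb, and no other protein-coding gene overlaps the 200 kb on either side. Its 539.2 kb window held 35 regions, of which 9 were called in all 4 libraries, 3 in both KO libraries alone (KO-only) and 1 in both flox libraries alone (flox-only). These are 25.7%, 8.57% and 2.86% of the window's regions, against 39.5%, 3.00% and 2.96% of all regions. The 3 KO-only regions were all outside the gene and the flox-only region was inside it. They are described and not tested. A region of this window was known from earlier results, and 2 against 2 libraries allow no exact p under 0.333 for a single value.

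The KO-only region farthest out, at chr11:18740303-18742624, is also the widest of them. It covered 1848 and 2322 bp in the KO libraries and none in the flox libraries, with peak scores of 137.65 and 117.63. The score is the authors' own value, -10 times the log10 of the peak's p-value within its library, and these ranked at percentiles of 72.6 and 63.3 in their lists. The region lies 137803 bp beyond the 3′ end of Meis1 and overlaps no annotated gene.

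A nearer KO-only region, at chr11:18822135-18823910, covered 799 and 1764 bp in the KO libraries (scores 67.47 and 150.98). It lies 56517 bp beyond the 3′ end in the lncRNA gene Gm31674, and 393 bp from a region called in KO replicate 2 and both flox libraries (864 and 861 bp in flox). Joined across that distance it is no longer KO-only. On the 5′ side, 52809 bp from the gene and in the lncRNA gene 4933406G16Rik, chr11:19072461-19073474 covered 1010 and 846 bp in the KO libraries. Its scores of 69.27 and 53.37 were low, at percentiles of 26.6 and 4.8. The flox-only region inside Meis1, chr11:18894954-18895985, covered 838 and 975 bp in the flox libraries with scores of 55.17 and 52.78, close to the lowest score of 50 in the lists.

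In flox libraries, called length around Meis1 averaged 4865.5 bp on the 3′ side and 8545.5 bp on the 5′ side. The KO means were 8402 and 8470 bp, and the KO replicates leaned in opposite directions. The 200 kb on the 3′ side held 7321 and 9483 bp in KO libraries, against 5484 and 4247 bp in flox libraries. Without the KO-only regions, the same stretch held 4674 and 5397 bp in KO libraries and 5484 and 4247 bp in flox libraries, and the groups overlapped. The gene itself held 4330 and 4276 bp in KO libraries and 4352 and 5014 bp in flox libraries. The 200 kb on the 5′ side held 9849 and 7091 bp in KO libraries and 8871 and 8220 bp in flox libraries, again overlapping. The KO-only regions were picked for being absent in flox, so leaving them out had to bring the groups closer, and nothing is read from it. How many stretches of 200 kb have the groups apart, as on the 3′ side, was not counted. Nothing is read from that separation either.

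Within the gene, 80918 bp held no peak in any library (chr11:18917575-18998492), which is 58.1% of the span. The strongest region of the gene, at chr11:18890391-18891489 towards its 3′ end, was called in all 4 libraries with scores of 187.38 and 375.83 in KO libraries and 249.6 and 304.09 in flox libraries. On the 3′ side a further stretch of 75117 bp held no peak, and on the 5′ side one of 41332 bp. The first regions beyond the 200 kb, at 206713 and 215479 bp from the gene, were each called in 3 libraries.

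**Figure D3:**
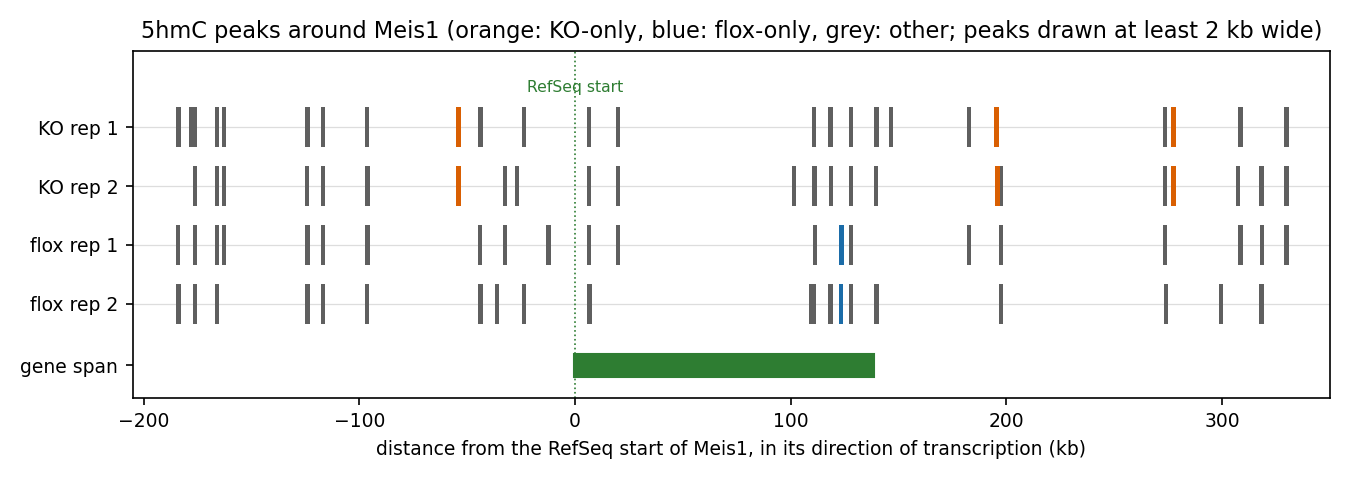
Peaks of each library around Meis1, with distance in kb from its RefSeq start in the direction of transcription on the x axis and the gene span in green. KO-only regions are orange, the flox-only region is blue and other peaks are grey, each drawn at least 2 kb wide. The 3 KO-only regions lie outside the gene, and 80918 bp inside it hold no peak.

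Meis2 (chr2:115861264-116067537, minus strand) carried 18 regions, 7 of them called in all 4 libraries, 8 in a single library and none KO-only or flox-only. Of all regions, 39.5% were called in all 4 libraries, 27.3% in a single library, 3.00% were KO-only and 2.96% flox-only. For this gene and those below, it was not counted how many of all regions have lengths or scores apart between the groups. Nothing is read from such separations of single regions. Most of the called length inside Meis2 lay on the 5′ side of its midpoint. The 103.1 kb from the 5′ end to the gene's midpoint held 9301 and 8480 bp in KO libraries and 9440 and 10108 bp in flox libraries, while the other 103.1 kb held 1586 and 3138 bp in KO libraries and 1968 and 3662 bp in flox libraries. The highest scored region, chr2:115980002-115981616, had scores of 822.17 and 662.56 in KO libraries and 827.24 and 557.03 in flox libraries. The region over the RefSeq start used here, chr2:116062163-116065228, covered 2018 and 1697 bp in KO libraries, against 2728 and 2860 bp in flox libraries, the difference lying at that start. The neighbouring region on its upstream side, chr2:116065341-116068218, holds the 5′ end of the gene span. It covered 2546 and 2527 bp in KO libraries and 2215 and 2871 bp in flox libraries, with overlap. A stretch of 49150 bp in the gene held no peak.

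Meis3 (chr7:16174012-16186510, plus strand) carried 8 regions, of which 5 were called in all 4 libraries and 3 in a single one (39.5% and 27.3% of all regions). The region over its start, chr7:16173722-16176702, scored 326.36 and 427.76 in KO libraries, against 270.33 and 237.25 in flox libraries. It covered 2406 and 2842 bp in KO libraries and 1632 and 2430 bp in flox libraries, and the groups overlapped in length. At the 3′ end, chr7:16185460-16186670 scored 323.79 and 253.96 in KO libraries and 234.32 and 477.51 in flox libraries, and the groups overlapped.

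Pbx2 (chr17:34592259-34597400, plus strand) is a compact gene among close neighbours, and its 5 kb reach into Notch4, Gpsm3, Ager and Rnf5. Of its 4 regions, 3 were called in all 4 libraries, against 39.5% of all regions. The widest, chr17:34589981-34594167, runs from Gpsm3 over the Pbx2 start and covered 3841 and 3677 bp in KO libraries and 3857 and 3761 bp in flox libraries. Inside the gene every called base lay on the 5′ side of its midpoint, 1909 and 1713 bp in KO libraries and 1877 and 1715 bp in flox libraries. The 1 region missing from a library, chr17:34597463-34598687 in Ager, covered 1225 and 0 bp in KO libraries and 728 and 598 bp in flox libraries.

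Pbx3 (chr2:34171457-34372045), although 200.6 kb long, carried 8 regions. Of these, 2 were called in all 4 libraries and 4 in a single one (39.5% and 27.3% of all regions). The regions called in all 4 were chr2:34180495-34181661, with 1037 and 655 bp in KO libraries and 1085 and 1001 bp in flox libraries, and chr2:34345856-34346652, with 650 and 433 bp in KO libraries and 783 and 671 bp in flox libraries. Both KO values were below both flox values in the second of these, and the groups overlapped in the first. How many of all regions have lengths apart in this way was not counted, so nothing is read from the second. A stretch of 61435 bp, 30.6% of the span, held no peak.

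Pbx4 (chr8:69832476-69872292, plus strand) carried 5 regions, 1 of them KO-only and 1 flox-only (3.00% and 2.96% of all regions). Besides the KO-only region over its start, chr8:69832316-69833473 (1158 and 1039 bp in KO libraries, scores 72.7 and 84.07), it had a flox-only region inside the gene, chr8:69849751-69850999 (1092 and 1152 bp in flox libraries, scores 51.99 and 81.5). The 3 regions called in all 4 libraries summed to 2673 and 1745 bp in KO libraries, against 3312 and 3532 bp in flox libraries. The region chr8:69838991-69840386 had 789 and 519 bp in KO libraries and 1352 and 1269 bp in flox libraries. Its scores overlapped, at 183.84 and 303.86 in KO libraries and 199.67 and 167.64 in flox libraries, so a shorter called length did not go with a lower score. The start was thus called in KO libraries alone, while the gene's total was lower in both KO libraries than in both flox libraries.

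Mecom (chr3:29951296-30509759, minus strand) is the longest of the genes at 558.5 kb and carried 47 regions. Of these, 16 were called in all 4 libraries, 8 in 3 libraries, 6 in 1 KO and 1 flox library and 16 in a single library. Of all regions, 39.5%, 16.1%, 11.2% and 27.3% had these patterns. The KO-only region at the internal start, chr3:30013339-30014271, covered 391 and 933 bp in the KO libraries with scores of 107.9 and 123.33. No region was flox-only.

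By pattern, the Mecom regions called in all 4 libraries summed to 13432 and 13962 bp in KO libraries and 13344 and 13754 bp in flox libraries, and the groups overlapped. Regions called in a single library summed to 6176 bp over 8 regions in KO replicate 1 and 2046 bp over 3 regions in KO replicate 2, against 1266 bp over 2 regions in flox replicate 1 and 2551 bp over 3 regions in flox replicate 2. Regions called in 3 libraries gave 4599 and 5522 bp in KO libraries and 4622 and 2923 bp in flox libraries. In all, 35 and 30 of the 47 Mecom regions were called in KO libraries, against 26 and 27 in flox libraries. Over all 174070 regions, 114222 and 119516 were called in KO libraries and 116436 and 116015 in flox libraries. With the number of peaks in place of bases, the log2 difference of Mecom was 0.28 (limma adjusted p 0.733). KO replicate 1 had the most regions that no other library shared. The patterns are set by the same calls as the lengths, so these sums describe the gene and do not locate the source of its difference.

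Between its internal and distal starts Mecom had 46.1 and 42.9 bp per kb in KO libraries, against 35.8 and 38.1 in flox libraries. From the internal start to the 3′ end, where the EVI1 zinc fingers are encoded, it had 40.8 and 40.3 bp per kb in KO libraries and 39.7 and 33.6 in flox libraries. KO was above flox in both stretches, and the part upstream of the internal start held most of the length. The region over the distal start, chr3:30508478-30510340, covered 1863 and 1592 bp in KO libraries, against 1330 and 1368 bp in flox libraries. Its scores ran the other way, 57.04 and 83.69 in KO libraries against 98.23 and 94.51 in flox libraries, so that a wider peak had a lower score.

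Prdm16 (chr4:154316122-154637360, minus strand) carried 33 regions. Of these, 23 were called in all 4 libraries, 4 in 3 and 6 in a single one, against 39.5%, 16.1% and 27.3% of all regions. None was KO-only or flox-only. The regions called in all 4 libraries summed to 29776 and 29587 bp in KO libraries and 29468 and 29090 bp in flox libraries. The highest scored region of all 8 genes, chr4:154415484-154419202, scored 941.2 and 1041.76 in KO libraries and 871.24 and 974.18 in flox libraries, and covered 3189 and 3240 bp in KO libraries, against 3406 and 3663 bp in flox libraries. Near the start, in a stretch shared with the lncRNA gene 5930403L14Rik, chr4:154631769-154633665 scored 301.4 and 275.92 in KO libraries (percentiles 93.9 and 92.9), against 119.34 and 96.19 in flox libraries (percentiles 65.5 and 51.8). Its length overlapped between the groups, with 1595 and 1353 bp in KO libraries and 1393 and 1351 bp in flox libraries. How many of all regions have scores or lengths apart between the groups was not counted. With 2 against 2 libraries the smallest exact p for a single region is 0.333. Nothing is therefore read from this separation or from those of single regions in the other genes.

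**Figure D4:**
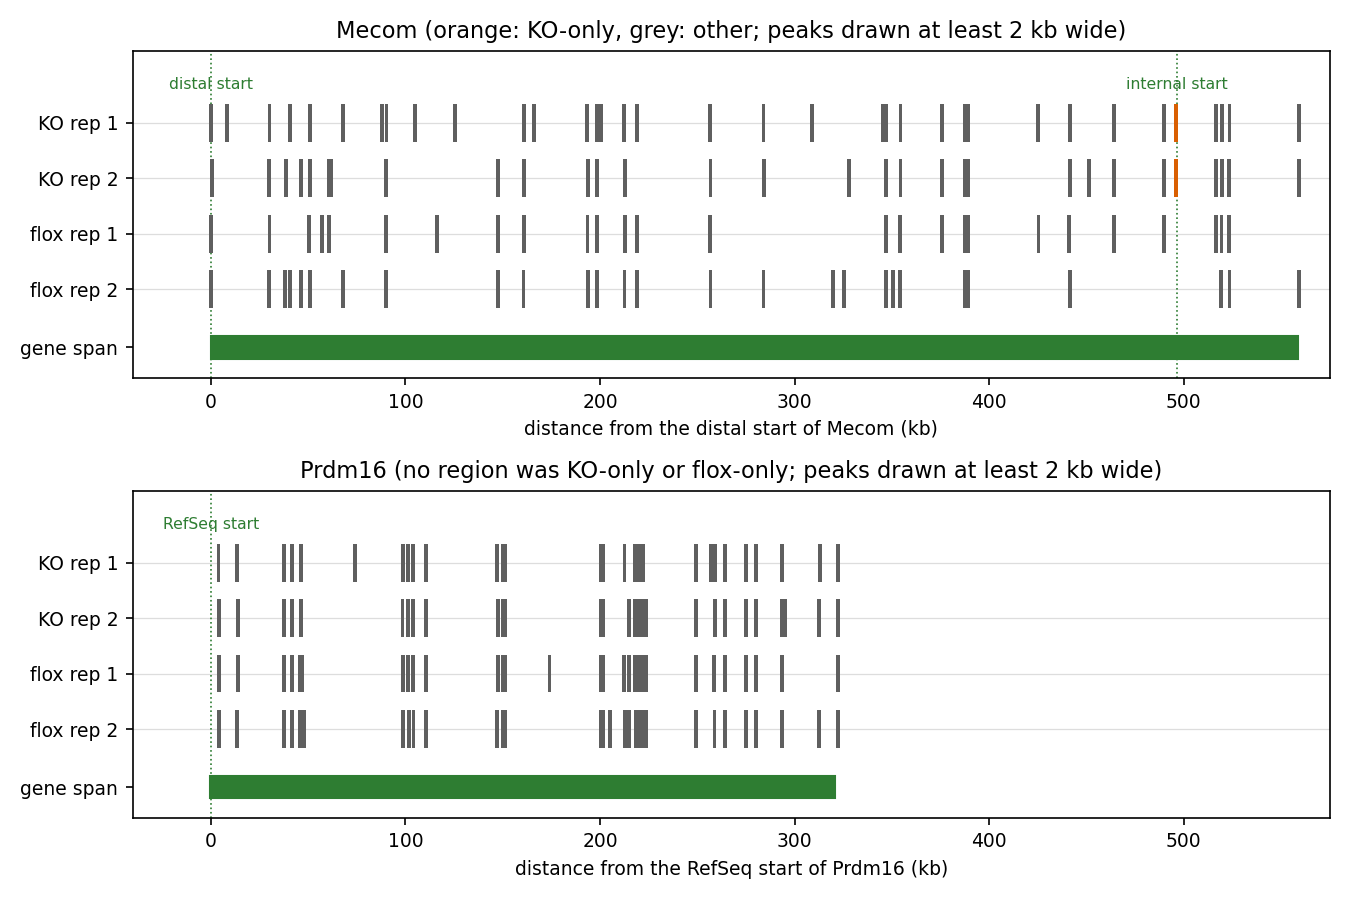
Peaks of each library along Mecom (top) and Prdm16 (bottom) on 1 scale, with distance in kb from the distal Mecom start and from the Prdm16 start on the x axes, the gene spans in green and peaks drawn at least 2 kb wide. Orange marks the KO-only region at the Mecom internal start. The KO rows of Mecom hold 35 and 30 regions and the flox rows 26 and 27, while the 4 rows of Prdm16 hold 27 to 29. Over all 174070 regions, 114222 and 119516 were called in KO libraries and 116436 and 116015 in flox libraries.

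Over the 8 genes with their 5 kb, 62 of 132 regions (47.0%) were called in all 4 libraries, against 39.5% of all regions. KO-only regions numbered 2 of 132 and flox-only regions 2 of 132 (1.52% each), where 3.00% and 2.96% of all regions had these patterns. With the outer regions of Meis1 added, 5 of 158 (3.16%) were KO-only, 2 (1.27%) were flox-only and 46 (29.1%) were called in a single library, against 27.3% of all regions. The share of KO-only regions over all 158 was thus near the background. It was below the background in the genes with their 5 kb and above it in the outer regions of Meis1, with 3 of 26 (11.5%), and the flox-only share was below the background. A region around Meis1 was known from earlier results, so nothing is read from the KO-only share there. The shares below the background rest on 2 KO-only and 2 flox-only regions, and nothing is read from them either. With peaks scoring at least 100 alone, the region at chr11:18740303-18742624 and that at the Mecom internal start remained KO-only. The other 5 KO-only or flox-only regions did not keep their pattern. The Mecom region was no longer KO-only where a library had to cover at least 50% of it. Peaks in regions of the 8 genes called in all 4 libraries had a median score of 157.3 (126.5 over all such regions), and those in single-library regions 68.7 (63.9 over all).

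**Figure D5:**
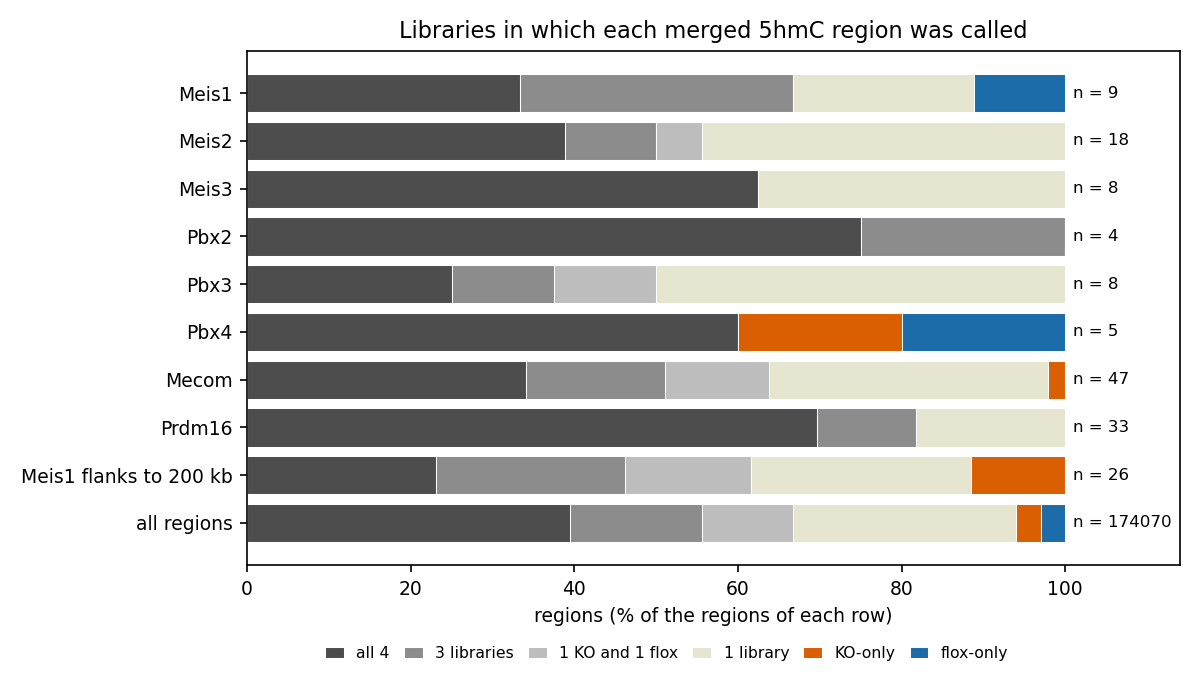
Share of the merged regions of each gene called in all 4 libraries, in 3, in 1 KO and 1 flox library, in a single library, in both KO libraries alone or in both flox libraries alone, beside all 174070 regions (x axis in percent; n is the number of regions). Prdm16 has 23 of 33 regions in all 4 libraries, against 39.5% of all regions. The Meis1 flanks hold 3 KO-only and no flox-only regions of 26, against 3.00% and 2.96% of all regions.

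Related genes were taken from 3 lists. Of 11 other TALE homeobox genes 9 were tested, with 3 log2 differences below 0 and 6 above (median 0.05). Irx3 had 3090 scaled bp in KO and 4121 in flox libraries on average, the lowest difference of those with at least 2000 bp, at -0.36. Mkx had the highest, 0.09, although its mean of 4036 scaled bp in KO was below that of 4138 in flox, since the difference is taken between logs. None of the TALE genes reached an unadjusted p under 0.05.

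Of 13 other PRDM genes 11 were tested, with 7 log2 differences below 0 and 4 above (median -0.28, against -0.04 over all genes tested), and none reached an unadjusted p under 0.05. Prdm12 had 2085 scaled bp in KO and 3242 in flox libraries (-0.61), and Prdm8 had 2547 in KO and 1930 in flox libraries (0.32). Of 22 partners and targets of the 8 genes 21 were tested, with 12 differences below 0 and 9 above (median -0.09). Hoxa9 and Hoxa10 had equal called length in every library (-0.469 for each), so the 21 values are not all separate. Of the 21 tested, 4 reached an unadjusted p under 0.05, against 6.14% of all genes tested, and none passed the adjusted threshold by limma. The 4 were Ctbp2, Ehmt2, Gata2 and Runx1, each with a difference below 0, and were singled out after their values were seen. Gata2, a stem cell factor that Mecom activates in mouse, had 2657 scaled bp in KO and 5678 in flox libraries (-0.996), and Hlf, a stem cell leucine zipper factor, had 4138 in KO and 2987 in flox libraries (0.45). Of 26 promoter windows of 17 of these partners and targets, 0 were under a peak in all 4 libraries and 24 under none, against 5.19% and 85.8% of all windows.

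Among the genes of these lists, the called length of Pknox1 was most like that of Meis1 over the 4 libraries (Euclidean distance 0.724 in log2 of bp per kb plus 1). Pknox1, itself a TALE partner of Pbx proteins, had 48.0 and 26.1 bp per kb in KO libraries and 22.5 and 41.8 in flox libraries. Trib2, a Meis1 target in mouse leukaemia models, followed at 1.043, with 26.3 and 25.7 bp per kb in KO libraries and 27.2 and 21.1 in flox libraries. Prdm10 was next at 1.045, with 35.7 and 34.6 bp per kb in KO libraries and 61.1 and 37.4 in flox libraries. These distances are descriptions over 4 libraries.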

How the data were processed

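The authors deposited 1 peak list per library, with a score and a p-value (as deposited by the authors) for each peak. Tools and build named in the submitters' processing notes are Bowtie, CASAVA 1.8, MACS 1.4 and GRCm38 (mm10), with no roles. How peaks were called, against which control and at what depth is not stated there. Per the deposited p-values, every peak's score was -10 log10(p) to within 0.02, with 50 as the lowest. Start and end positions are the authors' own coordinates.

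Peaks of 2 KO and 2 flox libraries were merged at 1 bp of overlap (bedtools 2.31.1). The IgG control and input were not analysed here. Called length per protein-coding gene (RefSeq span plus 5 kb, 21883 genes) was scaled to equal totals. limma 3.58.1 in R 4.3.3 compared log2(bp + 500) between groups (trend, robust, two-sided, Benjamini-Hochberg over the 14159 genes whose mean reached 500 bp), after a test on simulated data. Patterns were counted, not tested. Percentiles of scores are within a library's own list.

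The 8 genes and the 3 gene lists were chosen with earlier results of these data known. A region of the Meis1 window had also been reported before. The text names the 8 genes, the lowest and highest of each list with a mean of at least 2000 bp, and the 3 genes most like Meis1. Also named are the partners and targets with an unadjusted p under 0.05, and Hoxa9 and Hoxa10 for their equal values. Alternatives were score minimum, top 50000 peaks, pseudocount, filter, span, scaling, peak number, replicate block, merging distance, reach and leaving out each library.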

Additional observations from a re-analysis of the deposited data

How the results depend on the processing

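No gene of all those tested passed an adjusted p of 0.05 under any of 13 alternatives, the replicate block included (0 genes). Same-numbered KO and flox libraries shared almost no deviation in called length (correlation 0.007 over 14159 genes, 2 pairs). With so few libraries this cannot tell whether they came from the same culture or animal. Mecom, Meis2 and Pbx4 kept their direction under all 13. Mecom ranged from 0.10 to 0.36 and Pbx4 from -0.62 to -0.01. Signs turned with the gene span alone for Meis1 (-0.09), Meis3 (0.21) and Pbx2 (0.02), with the score minimum of 100 and the top 50000 peaks for Meis3 (0.45 and 0.28), and with the number of peaks for Prdm16 (-0.08). Leaving out each library gave -0.16 to 0.26 for Meis1, -0.18 to 0.10 for Meis3 (0.04 without flox replicate 2), -0.25 to 0.19 for Pbx2, -0.44 to 0.03 for Pbx3 (0.01 without KO replicate 1) and -0.02 to 0.06 for Prdm16. In the genes with 5 kb, 1 of 71 regions was KO-only with the score minimum and 1 of 70 with the top 50000 peaks. With presence over at least 50% of a region it was 1 of 132. Over all regions these settings gave 3.56%, 3.22% and 3.47%. Flox-only regions numbered 1 with either of the first 2 settings (2.94% and 3.28% of all regions). That region lay in Prdm16 at chr4:154489127-154490108, within a region otherwise called in all 4 libraries, and neither of the original 2 remained. Regions in all 4 libraries numbered 31 of 71 and 31 of 70 with these filters, against 31.6% and 31.2% of all regions. Around Meis1, the score minimum and the top 50000 peaks each left 16 regions. Of these, 1 was KO-only, 0 were flox-only and 3 were called in all 4 libraries. A reach of 100 kb left 21 regions, with 4 in all 4 libraries, against 39.5% of all regions. Of the 5 KO-only regions, chr11:18740303-18742624 and that at the Mecom internal start passed both score filters. The cause was not tested. Depth behind the lists is unknown, so a missing peak is not absence of 5hmC.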

Other observations

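The partners and targets of the 8 genes that reached an unadjusted p under 0.05 include Runx1, the gene whose protein gives AML1-ETO its DNA-binding part, and Ctbp2 and Ehmt2, a corepressor and a histone methyltransferase that bind EVI1. Runx1 had 14943 and 19502 scaled bp of called length in KO libraries, against 23774 and 26510 scaled bp in flox libraries (log2 difference -0.54). Ehmt2 had 4008 and 2986 scaled bp in KO libraries, against 5733 and 5913 scaled bp in flox libraries (-0.67). Ctbp2 had 1669 and 2092 scaled bp in KO libraries, against 2966 and 4009 scaled bp in flox libraries (-0.74). These genes were picked by their unadjusted p, and of the 869 genes that reached it 609 had a difference below 0. Their adjusted p by limma was 0.773.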
